A study of Mus musculus with 6 samples.

Results

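Collagens are the trimeric proteins that give dentine, bone, ligament and basement membrane their tensile strength, and each chain is encoded by its own gene. The 44 collagen genes described here are all genes of the deposited count table whose symbol consists of Col, a number, the letter a and a number, out of 22287 genes in all. They were measured by RNA sequencing in the apical part of first mandibular molars, the site of root growth, of C57BL/6 mice at postnatal day 7.5. All mice carried floxed Arid1a alleles (Arid1a fl/fl), which Cre can excise, and the labels give tamoxifen at postnatal day 3.5 for every sample. Arid1a encodes a subunit of the BAF chromatin remodelling complex. Controls had the floxed alleles alone (3 libraries, replicates 2, 3 and 5). Mutants had Gli1-CreER in addition (3 libraries, replicates 3, 4 and 5), a tamoxifen-activated Cre driven by Gli1 and therefore active in cells that receive a Hedgehog signal. Only the mutants carried CreER, so an effect of CreER itself and of losing Arid1a cannot be told apart. The labels do not say whether a library came from 1 animal or from pooled animals, and p-values measure only how these libraries vary.

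A collagen chain is recognised by its triple helix, a stretch in which glycine opens each triplet of residues because no larger side chain fits the centre of the trimer. Fibrillar collagens have long uninterrupted helices that pack side by side into banded fibrils, and type I collagen is the main organic component of dentine and bone. Network collagens such as type IV form the sheets of basement membranes, fibril-associated collagens decorate the surface of fibrils, and transmembrane collagens such as type XVII anchor epithelial cells to the layer below. Type VI collagen forms beaded filaments, type VII the anchoring fibrils under epithelia, and types XV and XVIII (multiplexins) lie around basement membranes. By this grouping the table held 11 fibrillar, 9 network, 9 fibril-associated, 4 transmembrane and 6 beaded filament genes, Col7a1, 2 multiplexins, and Col26a1 and Col28a1, which were left unclassified.

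The coding sequence shows the triplet repeat directly. The windows below were placed by choice within each chain, so they do not compare the classes. The following 72-base stretches are shown because they belong to the members on which the results turn, and each is read 5′ to 3′ on the coding strand with the glycine codons that open a Gly-X-Y triplet in capitals. They come from GENCODE M21 (GRCm38). Coordinates run from the first to the last base on the genome, and introns between them are not printed. The first 5 begin the longest triplet run of their chain, and the sixth crosses a break in the helix of a network collagen.
Col1a1, chr11:94939451-94939921, plus strand, exons 6 to 8 of 51: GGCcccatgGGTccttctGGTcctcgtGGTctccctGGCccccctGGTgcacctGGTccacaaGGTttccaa
Col3a1, chr1:45323762-45325395, plus strand, exons 5 to 6 of 51: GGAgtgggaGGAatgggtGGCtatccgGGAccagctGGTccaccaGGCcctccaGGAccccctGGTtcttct
Col27a1, chr4:63244040-63253652, plus strand, exons 6 to 8 of 61: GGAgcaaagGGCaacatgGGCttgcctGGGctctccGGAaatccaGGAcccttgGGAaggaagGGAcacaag
Col14a1, chr15:55471708-55473288, plus strand, exons 38 to 40 of 48: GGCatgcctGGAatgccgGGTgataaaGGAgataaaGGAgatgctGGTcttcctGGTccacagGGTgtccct
Col17a1, chr19:47664973-47665875, minus strand, exons 23 to 24 of 54: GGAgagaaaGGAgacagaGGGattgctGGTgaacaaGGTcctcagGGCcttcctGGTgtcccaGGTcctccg
Col4a6, chrX:141192084-141192155, minus strand, exon 27 of 45: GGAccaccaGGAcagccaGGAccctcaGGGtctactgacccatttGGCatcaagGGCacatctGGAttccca
In Col4a6 the glycine rhythm is lost for 3 residues and then resumes. The number of runs and their length differ between the classes. Counting runs of at least 5 triplets in the longest coding sequence of each gene, all 44 members had at least 1 run. The longest run of the 11 fibrillar chains held 216 to 344 triplets and each had 2 to 3 runs, whereas the 9 network chains had 4 to 24 runs with a longest one of 39 to 66 triplets. In Col1a1 the longest run spanned residues 168 to 1181, and 73.3% of the protein lay in triplet runs. Col27a1 and Col24a1 had shorter longest runs of 217 and 216 triplets. Over all their runs they held 987 and 981 residues, beside 1065 in Col1a1. In Col14a1 and Col12a1 the longest run was 32 triplets, with 13% and 7.63% of the protein in runs, so these fibril-associated chains are mostly non-helical. Col17a1 had 13 runs, the longest of 56 triplets. The exon structure of the fibrillar genes repeats the rhythm: the 41 exons of Col1a1 inside its longest run all had lengths divisible by 9, and 21 of them were 54 bp long.

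Libraries held 20453247 to 24255352 estimated counts. The targeted gene Arid1a stood at 209, 202 and 204 CPM (counts scaled to a common library size by TMM) in controls and at 119, 133 and 130 in mutants, and its log2 fold change was -0.68 with an SE of 0.07 (adjusted p = 0.0129 by edgeR's quasi-likelihood test, adjusted by Benjamini-Hochberg across the 17305 genes tested). Leaving out control replicate 2 or 3 ended this call (adjusted p = 0.0505 and 0.0529). Gli1, which drives CreER in the mutants, stood at 91, 76.7 and 97.9 CPM in controls and 32.7, 39.8 and 39.3 CPM in mutants. Its log2 fold change was -1.25 (SE 0.12, adjusted p = 0.00753 by edgeR), and the cause was not tested. As a landmark for the tissue, 5 odontoblast markers, all in the table, summed to 9800 to 10781 CPM in controls and 7845 to 11138 CPM in mutants. Most of this came from Dspp alone (8961 and 8208 CPM in the group means). Such RNA shows that odontoblast genes were expressed and cannot show which part of the molar was taken. The enamel genes Amelx and Ambn, products of ameloblasts, took 15.7%, 17.1% and 22.5% of all counts in control replicates 2, 3 and 5 and 8.54%, 10.4% and 6.6% in mutant replicates 3, 4 and 5. Control replicate 5 was the highest of the 6, and the groups did not overlap. Because these 2 genes fill so much of a library, they move the share left for every other gene, and collagen shares are therefore given on more than 1 denominator.

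Collagen genes took 6.07%, 6.11% and 5.36% of all counts in control replicates 2, 3 and 5 and 6.97%, 6.09% and 7.34% in mutant replicates 3, 4 and 5. The means were 5.85% ± 0.425 and 6.80% ± 0.642 (SD, n = 3 each), a mutant minus control difference of 0.953 percentage points, and mutant replicate 4 lay within the control range. With TMM-scaled library sizes as the denominator the difference was 0.0603 points (controls 6.14% to 6.44%, mutants 5.86% to 6.58%). Without Amelx and Ambn in the total, a denominator added after the data were seen, it was 0.264 points (controls 6.91% to 7.37%, mutants 6.79% to 7.86%). Without mitochondrial and globin genes in the total, it was 1.04 points, with controls at 6.32%, 6.41% and 5.6% and mutants at 7.32%, 6.43% and 7.71%. The groups overlapped on the library total, on TMM-scaled sizes and without Amelx and Ambn, and were apart without mitochondrial and globin genes, where mutant replicate 4 lay just above control replicate 3. Whether mutants and controls separate by collagen share thus depends on the denominator. In bulk tissue, fewer cells of a type and less RNA per cell cannot be told apart, which holds for every difference given here.

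**Figure D1:**
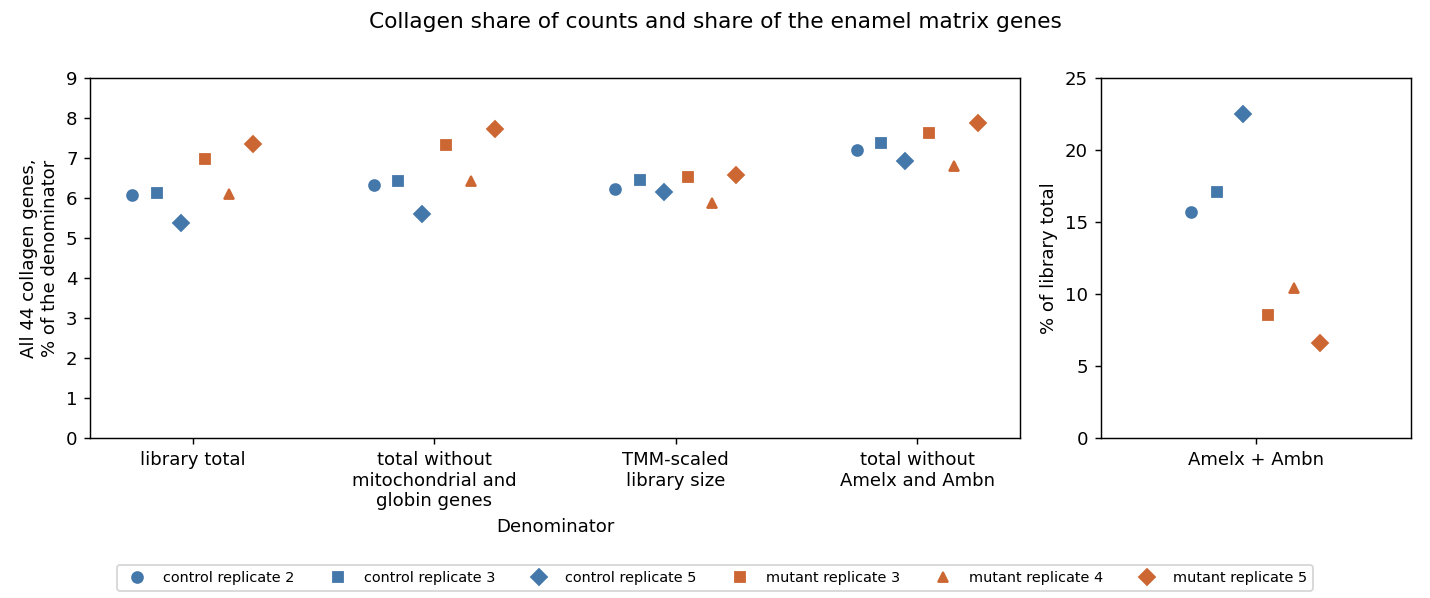
Left, the share of counts in all 44 collagen genes (%) in each of 6 libraries on 4 denominators; right, the share of the library total in Amelx and Ambn (%). Each point is a library; control replicate 5 has the lowest collagen share of the library total (5.36%) and the highest enamel share (22.5%), and collagen shares of the groups overlap on 3 denominators and are apart, by a narrow margin, without mitochondrial and globin genes.

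Most of this RNA was type I collagen. Fibrillar genes held 92.4% to 94.0% of collagen counts in every library, and their share of all counts was 5.47% ± 0.416 in controls and 6.34% ± 0.641 in mutants, 0.873 points higher. Network genes took 0.0903% ± 0.00566 and 0.112% ± 0.00611, a difference of 0.0218 points, and fibril-associated genes 0.116% ± 0.0151 and 0.163% ± 0.0185, a difference of 0.0467 points. Beaded filament genes took 0.0706% ± 0.0117 and 0.0929% ± 0.0071, a difference of 0.0222 points. The transmembrane class was the one of these 5 with a lower share in mutants, 0.0619% ± 0.00227 against 0.0759% ± 0.00503 in controls, a difference of -0.0140 points (all SD, n = 3 each). On the TMM scale, the summed CPM of mutants over controls was 1.01 for fibrillar, 1.08 for network, 1.22 for fibril-associated, 1.15 for beaded filament and 0.705 for transmembrane genes. With Col1a1 and Col1a2 set aside, the other 42 genes took 0.972%, 0.859% and 0.772% of counts in controls and 1.09%, 1.13% and 1.16% in mutants, and on the TMM scale their sum was 9281 ± 584 CPM in controls and 10512 ± 364 CPM in mutants (SD, n = 3 each). On this scale too every mutant library (10218 to 10919 CPM) lay above every control library (8851 to 9946 CPM). Most of this difference came from Col3a1, the most abundant of the 42 (1981 ± 426 CPM in controls, 2927 ± 264 CPM in mutants). Col3a1 itself was not called (adjusted p = 0.141 by edgeR). Because 1 gene makes up most of the difference, the sum cannot show whether the other genes shared a rise.

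Levels of different genes were compared per length, as CPM per kb of the transcript with the longest coding sequence. Such levels depend on the length chosen. By this length the ratio of Col1a1 to Col1a2 was 2.25 to 2.53 over the libraries. By the length of all annotated exons of each gene together it was 4.71 to 5.31. Col1a1 (6563 CPM per kb in controls, 6420 in mutants) and Col1a2 (2700 and 2741) stood far above the rest, followed by Col3a1 (356 and 526), Col11a2 (204 and 188), Col5a2 (126 and 151) and Col9a2 (102 and 100). The highest network chain was Col4a1 (76.5 and 80.7), the highest beaded filament chain Col6a2 (69.3 and 78.4) and the highest transmembrane chain Col17a1 in controls (85.0 and 44.2) and Col23a1 in mutants (48.4 and 45.3). The chains at the bottom were Col4a4, Col4a3 and Col6a6, with under 0.1 CPM per kb in both group means. Col4a3 and Col6a6 did not pass the filter on low counts and were not tested. Col6a6 had no count in control replicate 5, where 3 counts, the limit that a count of 0 allows, would be a share of 1.42e-05% (counting error only).

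**Figure D2:**
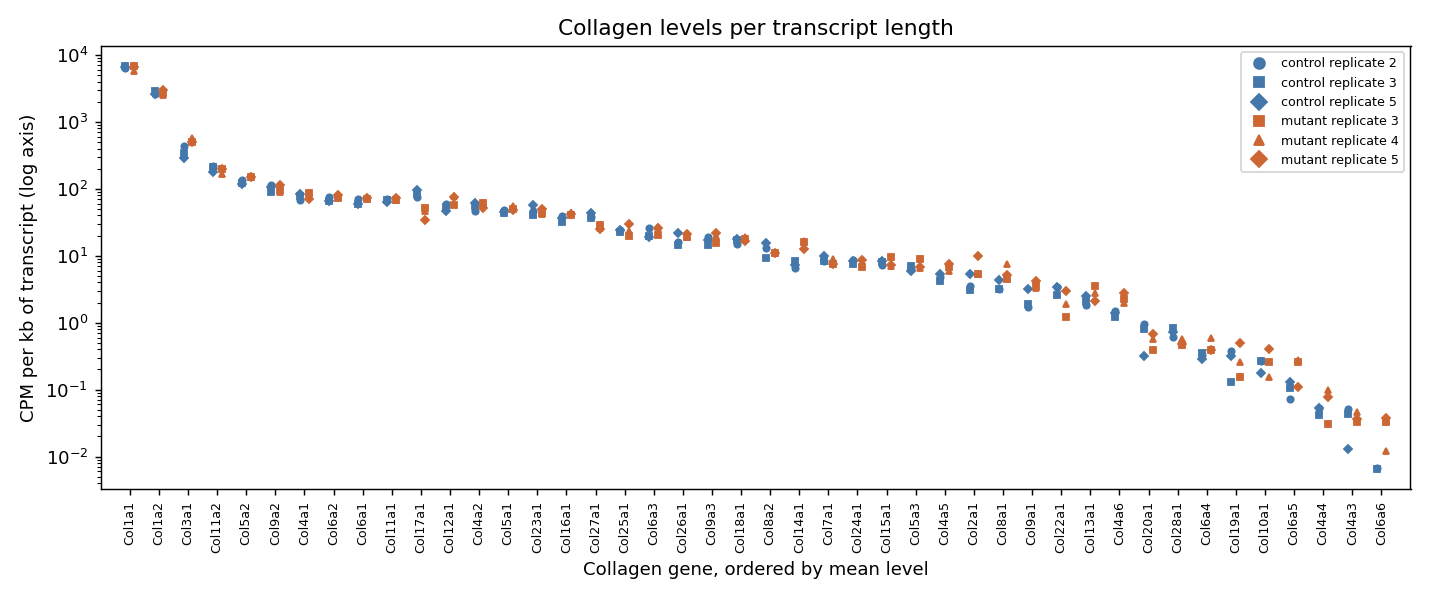
CPM per kb of transcript (log axis) of the 44 collagen genes, ordered by mean level; each point is a library, blue for controls and orange for mutants. Col1a1 and Col1a2 lie highest, and the points of Col17a1 and Col27a1 (mutants lower) and Col14a1 (mutants higher) separate by group; the count of 0 of Col6a6 in control replicate 5 cannot be drawn on a log axis.

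Of the 42 collagen genes that passed the filter and were tested, Col14a1 rose in mutants and Col17a1 and Col27a1 fell, and no other member was called by edgeR (17305 genes tested, adjusted p under 0.05). Among all genes tested, 0.659% were called higher and 1.2% lower. Log2 fold changes, given throughout as mutant minus control, were positive for 30 members and negative for 12, with a median of 0.17, beside a median of 0.01 over all genes with 8994 positive and 8311 negative. The libraries of the groups did not overlap for 11 tested members that were higher in mutants and 3 that were lower, beside 10.6% and 10.8% of all genes. At an unadjusted p under 0.05, 12 members were higher and 3 lower, beside 7.13% and 7.83% of all genes. DESeq2 called 6 members higher, adding Col3a1, Col4a5, Col4a6, Col5a2 and Col8a1 to Col14a1, and the same 2 lower, beside 2.15% and 2.97% of the 16950 genes to which it gave an adjusted p. Limma-voom called the same 3 members as edgeR (0.48% of all genes higher, 1.08% lower), and limma on the authors' normalized table called Col14a1 alone (0.295% and 0.416%). When libraries were scaled by their totals alone the median of all genes moved to 0.21, 7 members changed sign, and Col14a1, Col4a5 and Col4a6 were called higher and Col17a1 lower, beside 2.38% and 0.63% of all genes.

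**Figure D3:**
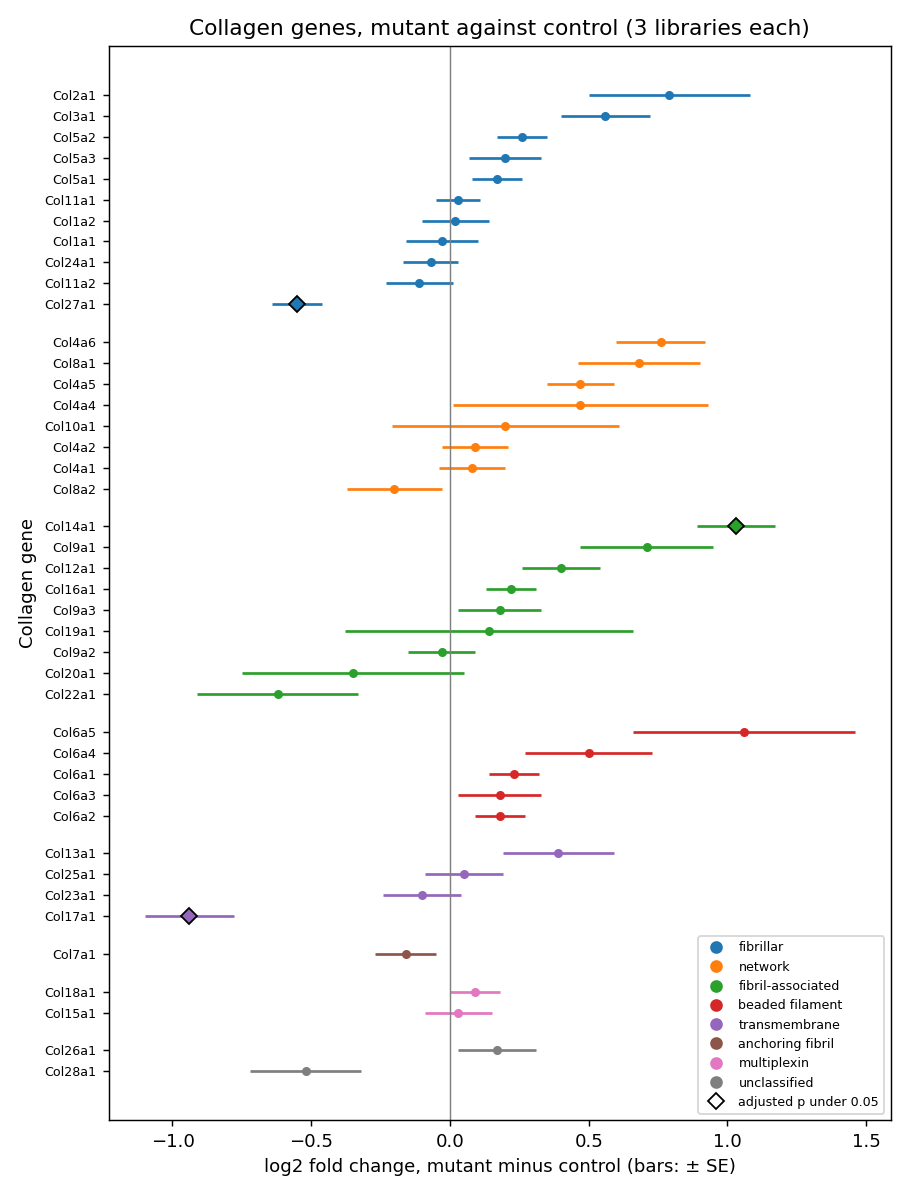
Log2 fold change (mutant minus control, bars ± SE, 3 libraries per group) of the 42 tested collagen genes by class; black-edged diamonds are genes at an adjusted p under 0.05. Col14a1 at 1.03 is called higher, Col17a1 at -0.94 and Col27a1 at -0.55 are called lower, and Col1a1 and Col1a2 lie next to 0.

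Among the fibrillar genes, the chains of type I collagen hardly differed. Col1a1, which encodes the alpha1 chain, stood at 38141, 39897 and 38714 CPM in controls and at 40467, 34045 and 39702 CPM in mutants. Its groups overlapped, with mutant replicate 4 the lowest of all 6 libraries, and its log2 fold change was -0.03 (SE 0.13, adjusted p = 0.938). Col1a2, the alpha2 chain of the same trimer, stood at 14064, 15445 and 13814 CPM in controls and 14565, 13672 and 15744 CPM in mutants, and its log2 fold change was 0.02 (SE 0.12, adjusted p = 0.954).

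Col3a1, whose homotrimers join type I fibrils in soft connective tissue such as the periodontal ligament, stood at 2438, 1911 and 1594 CPM in controls and at 2762, 3230 and 2787 CPM in mutants. Every mutant library lay above every control library, but the controls were spread widely and the log2 fold change of 0.56 (SE 0.16) did not pass the test (adjusted p = 0.141, and 0.00769 to 0.342 over the alternatives, the lowest by DESeq2). Col5a2, a chain of the type V collagen that starts fibril assembly, stood at 901, 825 and 785 CPM in controls and 997, 1023 and 985 CPM in mutants. Its mutant libraries were tightly grouped above the controls, with a log2 fold change of 0.26 (SE 0.09, adjusted p = 0.206). The remaining type V and XI chains Col5a1, Col5a3, Col11a1 and Col11a2 had log2 fold changes of 0.17, 0.20, 0.03 and -0.11, and their groups overlapped. Col2a1, the main fibrillar collagen of cartilage, was low at 17.7, 15.6 and 26.9 CPM in controls and 27.0, 27.0 and 50.1 CPM in mutants (a log2 difference of 0.79, SE 0.29, adjusted p = 0.241).

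Col27a1, a fibrillar chain known from cartilage whose longest triplet run is short for its class, was the fibrillar gene that fell. It stood at 285, 278 and 328 CPM in controls and at 221, 195 and 194 CPM in mutants, or 297 ± 27.2 and 203 ± 15.4 CPM (SD, n = 3 each). All mutants lay below all controls, and the log2 fold change was -0.55 (SE 0.09, adjusted p = 0.0370 by edgeR). Among the 6 fits that leave out 1 library, it kept the call without mutant replicate 3, and the adjusted p was 0.103, 0.115, 0.114, 0.132 and 0.116 without control replicates 2, 3 and 5 and mutant replicates 4 and 5. It was also lost with library totals alone (-0.34, adjusted p = 0.0658). Col24a1, the chain nearest to it in helix length, had a log2 fold change of -0.07 (SE 0.10, adjusted p = 0.807).

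**Figure D4:**
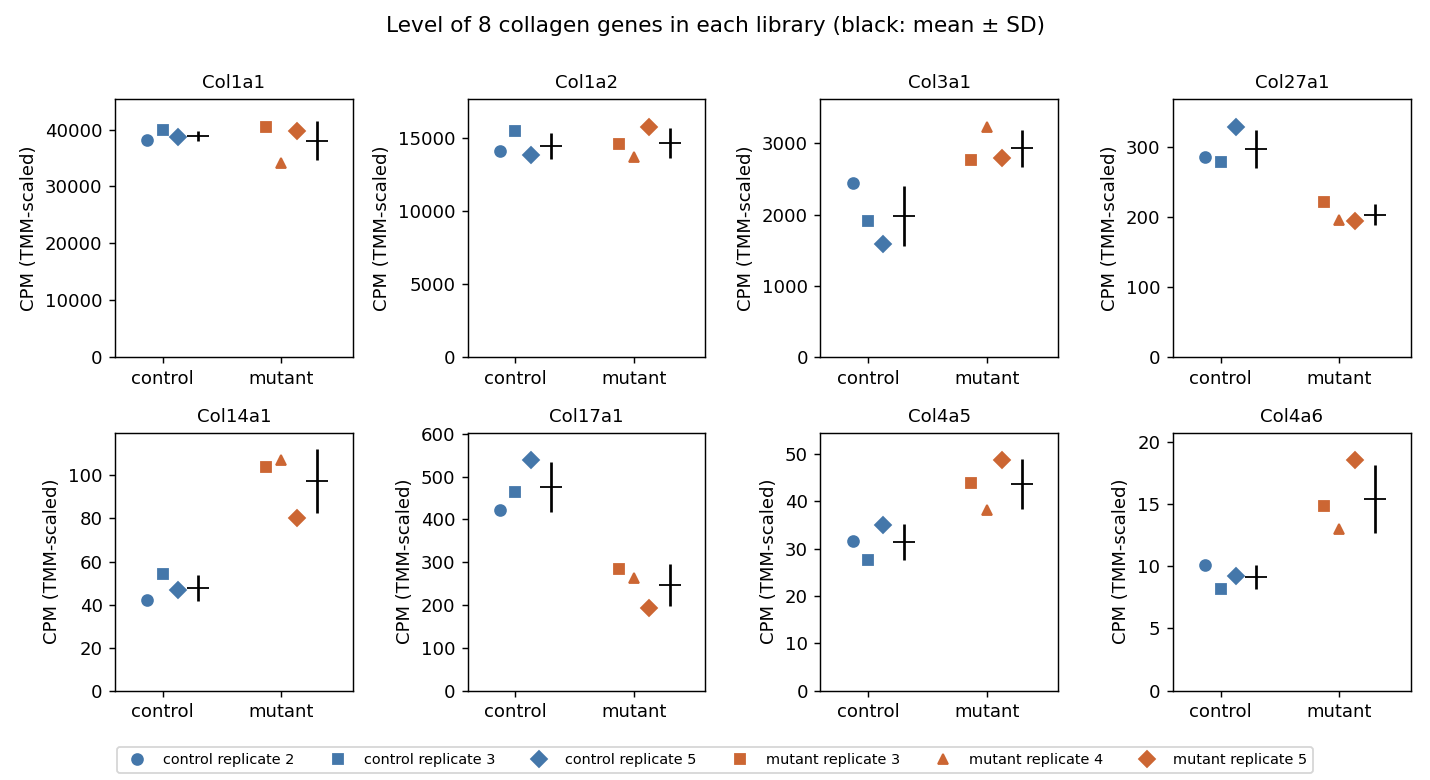
CPM (TMM-scaled) of 8 collagen genes in each library, with the mean ± SD of 3 libraries in black beside each group. Groups overlap for Col1a1 and Col1a2 and are apart for the other 6: mutants are higher for Col3a1, Col14a1, Col4a5 and Col4a6 and lower for Col27a1 and Col17a1.

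The fibril-associated class held the gene that rose. Col14a1, which encodes a collagen that binds the surface of type I fibrils in tendon, ligament and dermis, stood at 42.2, 54.1 and 46.8 CPM in controls and at 104, 107 and 80.0 CPM in mutants. The lowest mutant library lay well above the highest control, and the means were 47.7 ± 6.00 and 97.2 ± 14.9 CPM (SD, n = 3 each), a 2.04-fold level (log2 fold change 1.03, SE 0.14, adjusted p = 0.0205 by edgeR). The size stayed between 0.86 and 1.23 over 16 alternatives, and 12 of these kept the call. It was lost without control replicate 2, 3 or 5 (adjusted p = 0.0677, 0.0578 and 0.0788) and without mutant replicate 4 (adjusted p = 0.0678). The 5 markers of dental follicle and periodontal ligament summed to 242 to 305 CPM in controls and 405 to 494 CPM in mutants. Most of this came from Postn (222 and 368 CPM in the group means), the marker called higher by edgeR. Tnmd (log2 fold change 0.71) and Mkx (0.68) were not called by edgeR, and for Mkx all mutants lay above all controls. Aspn stood at 19.2 and 19.3 CPM, and Scx, under 3 CPM in every library, had a log2 fold change of -0.16. DESeq2 called 2 of the 5 markers higher, beside 2.15% of all genes. The part of these markers in the result was not tested.

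The other fibril-associated genes did not pass the test. Col12a1, a close relative of Col14a1, stood at 679, 626 and 538 CPM in controls and 662, 903 and 866 CPM in mutants, with mutant replicate 3 inside the control range (log2 fold change 0.40, SE 0.14, adjusted p = 0.227). Col16a1, found near fibrils and basement membranes, stood at 205, 165 and 192 CPM in controls and 213, 225 and 218 CPM in mutants (0.22, SE 0.09, adjusted p = 0.304), with all mutants above all controls. Type IX collagen, which covers type II fibrils in cartilage, was uneven. Its chain Col9a1 stood at 6.46, 7.16 and 12.3 CPM in controls and 13.7, 12.7 and 15.8 CPM in mutants (0.71, SE 0.24, adjusted p = 0.208). Its chain Col9a2 stood at 332, 257 and 309 CPM in controls and 284, 264 and 332 CPM in mutants (-0.03, SE 0.12, adjusted p = 0.943). Col9a3, Col19a1, Col20a1 and Col22a1 ranged from -0.62 (Col22a1, adjusted p = 0.372) to 0.18 (Col9a3). Cartilage markers were detected at a summed 148 to 188 CPM in controls and 174 to 226 CPM in mutants, with 4 of 5 in the table, and their part in the values of Col2a1 and Col9a1 was not tested.

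No network gene was called by edgeR, while 7 of 8 tested had positive log2 fold changes with a median of 0.34. At an unadjusted p under 0.05, 3 were higher and none lower, beside 7.13% and 7.83% of all genes. DESeq2 called these 3 (Col4a5, Col4a6 and Col8a1) higher, beside 2.15% of all genes. Limma-voom and limma on the authors' normalized table called none. Col4a5 and Col4a6, which build the type IV networks of some specialised basement membranes, were the clearest pair. Col4a6 stood at 10.1, 8.14 and 9.19 CPM in controls and 14.8, 13 and 18.5 CPM in mutants (a log2 difference of 0.76, SE 0.16, adjusted p = 0.0601). Col4a5 stood at 31.7, 27.6 and 35.1 CPM in controls and 43.9, 38.2 and 48.7 CPM in mutants (0.47, SE 0.12, adjusted p = 0.109). In both genes all mutants lay above all controls, and adjusted p-values over the alternatives ran from 0.00234 to 0.193 for Col4a6 and from 0.0256 to 0.287 for Col4a5. The genes lie head to head on chromosome X, 1308 bp apart.

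Col4a1 and Col4a2, the chains of the basement membrane network found in nearly all tissues, barely differed. Col4a1 stood at 442, 520 and 555 CPM in controls and 570, 565 and 466 CPM in mutants (a log2 difference of 0.08, SE 0.12, adjusted p = 0.827). Col4a2 stood at 301, 358 and 396 CPM in controls and 396, 393 and 336 CPM in mutants (0.09, SE 0.12, adjusted p = 0.778). Both genes were lowest in control replicate 2 and next lowest in mutant replicate 5. Endothelial markers, whose cells make this network around vessels, summed to 208 to 242 CPM in controls and 244 to 254 CPM in mutants, again with control replicate 2 lowest, and none of the 5 was called by edgeR, DESeq2 or limma-voom or had an unadjusted p under 0.05. The ratio of Col4a1 to Col4a2 counts kept to 1.39 to 1.47 in all 6 libraries. Their start sites overlap by 22 bp on opposite strands of chromosome 8. Their promoter windows (RefSeq, GRCm38.p6, 250 bases before to 50 after the start, 5′ to 3′ on each gene's strand) are printed because this pair moved together across libraries, with the CCAAT box (CCAAT, or ATTGG on the other strand) in capitals.
Col4a1, chr8:11312777-11313076, minus strand: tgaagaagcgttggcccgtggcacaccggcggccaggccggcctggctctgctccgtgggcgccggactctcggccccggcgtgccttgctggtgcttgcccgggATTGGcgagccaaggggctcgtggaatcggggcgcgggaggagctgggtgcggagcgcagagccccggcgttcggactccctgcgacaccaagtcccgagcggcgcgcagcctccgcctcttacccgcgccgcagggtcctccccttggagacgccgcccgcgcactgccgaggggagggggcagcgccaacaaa
Col4a2, chr8:11312555-11312854, plus strand: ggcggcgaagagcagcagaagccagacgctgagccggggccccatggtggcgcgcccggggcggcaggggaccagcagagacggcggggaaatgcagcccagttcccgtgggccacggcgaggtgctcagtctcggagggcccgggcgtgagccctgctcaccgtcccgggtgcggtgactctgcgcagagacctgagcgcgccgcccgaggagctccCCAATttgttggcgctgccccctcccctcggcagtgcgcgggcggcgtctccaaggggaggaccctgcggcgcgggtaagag
Each window held 1 CCAAT box and neither held a TATA box (TATAAA). Promoter windows were matched for 35 of the 44 genes (38 windows), and Col14a1 was not among them. Searching both strands, 34.2% of collagen windows held CCAAT beside 37.4% of all 32851 windows, 13.2% held TATAAA beside 13.6%, and 60.5% held the GC box GGGCGG beside 35.7%. The GLI motif GACCACCCA, bound by the Hedgehog transcription factors, was in none of the 38 collagen windows and in 0.253% of all windows. Such matches describe letters in these windows only.

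The short-chain network genes went apart. Col8a1, of the type VIII collagen made by vessel walls and other mesenchyme, stood at 16.0, 16.3 and 22.4 CPM in controls and 22.6, 39.0 and 25.9 CPM in mutants (a log2 difference of 0.68, SE 0.22, adjusted p = 0.190). Its partner Col8a2 stood at 55.8, 39.8 and 67.6 CPM in controls and 47.4, 47.8 and 47.1 CPM in mutants (-0.20, SE 0.17, adjusted p = 0.657). Col10a1, the collagen of hypertrophic cartilage, stayed at or under 1.27 CPM in every library and Col4a4 at or under 0.997 CPM.

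Col17a1, a transmembrane collagen of the hemidesmosomes that fix basal epithelial cells to the basement membrane, fell most among the collagens. It stood at 423, 464 and 538 CPM in controls and at 284, 264 and 192 CPM in mutants, or 475 ± 58.6 and 247 ± 48.2 CPM (SD, n = 3 each). The highest mutant library lay far below the lowest control, and the log2 fold change was -0.94 (SE 0.16, adjusted p = 0.0345 by edgeR), which leaves 0.520 of the control level. It kept the call without mutant replicate 3 and lost it in the other 5 fits that leave out a library: adjusted p was 0.0806, 0.123 and 0.117 without control replicates 2, 3 and 5, and 0.101 and 0.0561 without mutant replicates 4 and 5. Markers of dental epithelium stood beside it as follows. Their summed level, nearly all from Amelx and Ambn, was 162649 to 260226 CPM in controls and 60694 to 101797 CPM in mutants, and Amelx was called lower (-1.59, adjusted p = 0.0470). Ambn had a log2 fold change of -0.78 (adjusted p = 0.124 by edgeR). The markers shared by epithelial cells in general differed less: Krt5 had a log2 fold change of -0.23, Krt14 of 0.03, Krt17 of -0.46, Cdh1 of -0.32 and Epcam of 0.31, none called by edgeR. For Krt17 and Cdh1 all mutants lay below all controls. Of the 7 epithelial markers DESeq2 called 3 lower and 0 higher, beside 2.97% and 2.15% of all genes. Control replicate 5 was highest and mutant replicate 5 lowest for both Col17a1 and Amelx. The part of the epithelium in the Col17a1 result was not tested.

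The remaining transmembrane collagens did not follow Col17a1. Col23a1 stood at 261, 233 and 328 CPM in controls and 247, 237 and 285 CPM in mutants (a log2 difference of -0.10, SE 0.14, adjusted p = 0.803). Col25a1, known from muscle innervation, stood at 63.8, 60.0 and 62.6 CPM in controls and 52.3, 61.2 and 79.5 CPM in mutants (0.05, SE 0.14, adjusted p = 0.912). Col13a1, a collagen of cell junctions and the neuromuscular synapse, had a log2 fold change of 0.39 (SE 0.20, adjusted p = 0.426). Col7a1, whose anchoring fibrils lie on the connective tissue side of the same epithelial attachment as Col17a1, stood at 78.2, 76.3 and 92.5 CPM in controls and 68.7, 82.6 and 69.5 CPM in mutants (-0.16, SE 0.11, adjusted p = 0.547). Its groups overlapped.

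All 5 tested beaded filament genes had positive log2 fold changes, from 0.18 to 1.06, and none was called by edgeR, DESeq2 or limma-voom. At an unadjusted p under 0.05, 2 were higher, beside 7.13% of all genes. The major type VI chains ran closely together. Col6a1 stood at 288, 247 and 242 CPM in controls and 292, 313 and 302 CPM in mutants (0.23, SE 0.09, adjusted p = 0.282). Col6a2 stood at 302, 263 and 256 CPM in controls and 291, 323 and 315 CPM in mutants (0.18, SE 0.09, adjusted p = 0.416). Col6a3 stood at 262, 198 and 195 CPM in controls and 206, 275 and 260 CPM in mutants (0.18, SE 0.15, adjusted p = 0.647). Control replicate 2 was the highest control for all of them. The minor chains Col6a4 (0.50) and Col6a5 (1.06, adjusted p = 0.262) were under 5 CPM in every library.

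The multiplexins and the unclassified members held no called gene by edgeR, DESeq2 or limma-voom. Col28a1 alone had an unadjusted p under 0.05, beside 7.83% of all genes that were lower at this threshold. Col18a1, the parent chain of endostatin, stood at 84.5, 94.3 and 98.1 CPM in controls and 98.5, 105 and 91.7 CPM in mutants (0.09, SE 0.09, adjusted p = 0.684). Col15a1 stood at 37.2, 41.3 and 43.0 CPM in controls and 49.2, 36.9 and 38.2 CPM in mutants (0.03, SE 0.12, adjusted p = 0.930). Neither separated by group. Col26a1 stood at 43.2, 39.9 and 58.9 CPM in controls and 51.2, 51.4 and 56.6 CPM in mutants (0.17, adjusted p = 0.661). Col28a1, a collagen of peripheral nerve, stood at 2.62, 3.46 and 3.10 CPM in controls and 1.97, 2.43 and 2.02 CPM in mutants (-0.52, SE 0.20, adjusted p = 0.282), with all mutants below all controls.

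Ratios of partner chains within a library do not depend on the scaling. The pairs differed in how steady their ratios were. Col1a1 to Col1a2 counts stood at 2.71, 2.58 and 2.80 in controls and 2.78, 2.49 and 2.52 in mutants. Col5a1 to Col5a2 stood at 0.448, 0.442 and 0.478 in controls and 0.420, 0.460 and 0.407 in mutants, and the groups overlapped for both pairs. The ratio of Col3a1 to Col1a1 was 0.0639, 0.0479 and 0.0412 in controls and 0.0683, 0.0949 and 0.0702 in mutants, a log2 difference of 0.62 with the groups apart and mutant replicate 3 just above control replicate 2. Groups were also apart, with mutants higher, for Col8a1 to Col8a2 (0.286 to 0.408 in controls, 0.477 to 0.816 in mutants), Col9a1 to Col9a2 (0.0195 to 0.0400 and 0.0476 to 0.0483), Col14a1 to Col12a1 (0.0622 to 0.0870 and 0.0925 to 0.157) and, by a small margin, Col6a1 to Col6a2. Col4a5 to Col4a6 was lower in mutants (2.64 to 2.96) than in controls (3.15 to 3.82), so that although both genes stood higher in mutants, Col4a6 did so by more. These ratios were not tested.

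**Figure D5:**
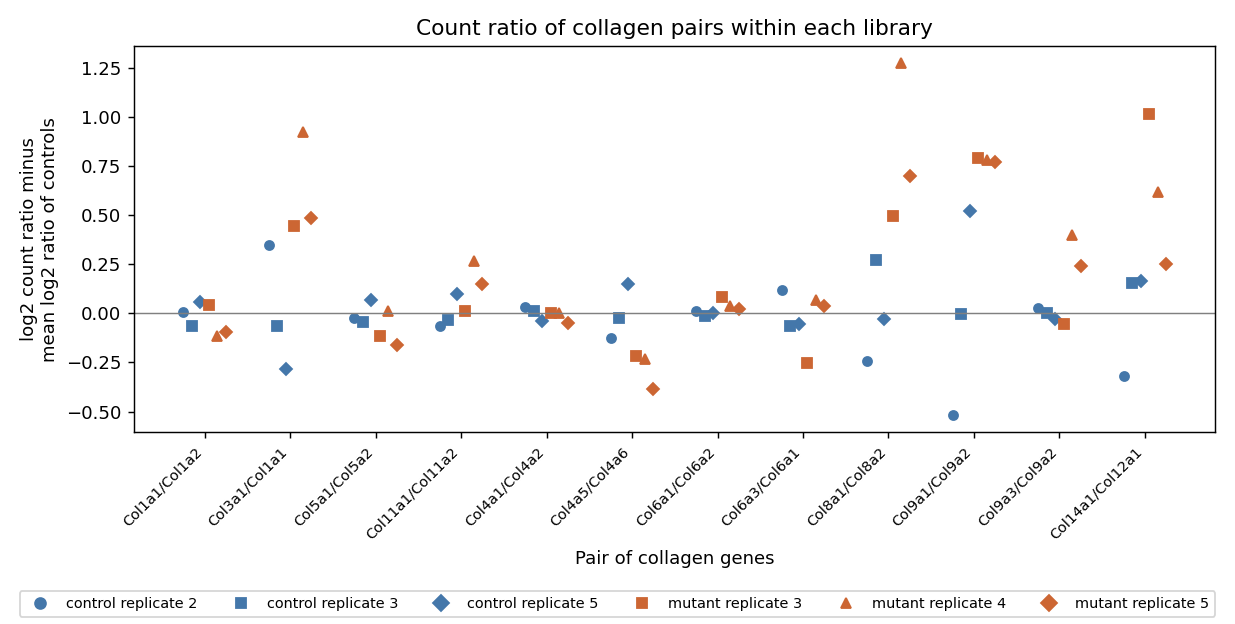
Log2 ratio of the counts of 12 collagen pairs in each library, minus the mean log2 ratio of the 3 controls. Ratios of Col1a1 to Col1a2 and of Col4a1 to Col4a2 stay near 0 in all libraries, and mutants lie above all controls for Col3a1 to Col1a1, Col8a1 to Col8a2, Col9a1 to Col9a2 and Col14a1 to Col12a1; the pair Col4a3 and Col4a4 is left out because of its low counts.

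Collagen chains are hydroxylated, folded, exported, trimmed and cross-linked by dedicated proteins, of which 36 were listed and all were tested. None was called by edgeR. At an unadjusted p under 0.05, 4 were higher and 4 lower, beside 7.13% and 7.83% of all genes. DESeq2 called 1 higher and 3 lower, beside 2.15% and 2.97%, and limma-voom and limma on the normalized table called none. Log2 fold changes were positive for 21 and negative for 15, with a median of 0.03. P4ha2, a prolyl 4-hydroxylase subunit, stood at 123, 110 and 133 CPM in controls and 93.2, 91.0 and 91.9 CPM in mutants (-0.41, SE 0.08, adjusted p = 0.0575). P4ha3, another such subunit, stood at 7.34, 5.71 and 4.89 CPM in controls and 11.5, 13.3 and 8.51 CPM in mutants (0.89, SE 0.21, adjusted p = 0.0875). The groups did not overlap for either subunit, and they differed in opposite directions.

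The smallest p-values after these belonged to genes of export, cross-linking and trimming. Mia3, which loads procollagen into export carriers, stood at 114, 108 and 122 CPM in controls and 91.6, 96.0 and 93.3 CPM in mutants (-0.30, SE 0.07, adjusted p = 0.0957). Plod2, the lysyl hydroxylase that sets the kind of cross-link at the chain ends, stood at 240, 222 and 212 CPM in controls and 138, 175 and 193 CPM in mutants (-0.41, SE 0.13, adjusted p = 0.163). In both genes all mutants lay below all controls. Tll2, a tolloid-like proteinase, was near 1 CPM (1.19, SE 0.34, adjusted p = 0.136), and P3h3, of the prolyl 3-hydroxylase family, had a log2 fold change of 0.20 (SE 0.07, adjusted p = 0.217). The collagen chaperone Serpinh1 (0.02) and the cross-linking enzyme Lox (-0.01) hardly differed.

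Of 10 listed collagen receptors, 9 were in the table and tested, and edgeR called 2 integrin chains, in opposite directions. Among all genes tested, edgeR called 0.659% higher and 1.2% lower. DESeq2 also called 1 receptor higher and 1 lower, beside 2.15% and 2.97% of all genes. Limma-voom called 0 higher and 1 lower, beside 0.48% and 1.08%, and limma on the normalized table called none. Itga11, the alpha chain of a receptor for fibrillar collagen on connective tissue cells, stood at 30.8, 32.3 and 28.7 CPM in controls and 41.2, 48.5 and 40.5 CPM in mutants, and rose with a log2 fold change of 0.50 (SE 0.10, adjusted p = 0.0485 by edgeR). Itga10, the alpha chain of a collagen receptor best known from chondrocytes, stood at 33.4, 31.8 and 36.4 CPM in controls and 22.5, 23.3 and 21.5 CPM in mutants, and fell with a log2 fold change of -0.59 (SE 0.08, adjusted p = 0.0227 by edgeR). Neither group pair overlapped. Itga11 lost its call without any 1 of the 6 libraries (adjusted p = 0.0572 to 0.141), and Itga10 lost it in all but the fit without mutant replicate 3 (adjusted p = 0.0676 to 0.0809 in the others). Their common beta chain Itgb1 (0.11, adjusted p = 0.602), the discoidin receptor Ddr2 (0.07, adjusted p = 0.794), Itga1 (0.32, adjusted p = 0.444) and Lair1 (0.60, adjusted p = 0.334) were not called.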

How the data were processed

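RNA sequencing (single-end, 75 cycles) of 3 control and 3 mutant libraries was deposited as gene tables. STAR 2.6.1d, Partek and the build mm10 are named, per the submitters' processing notes, without their roles. The authors deposited expected counts per gene, of which 53.8% were whole within 0.001, and a normalized signal table for 18665 genes, used for 1 alternative. That signal equals the deposited count plus 1 times a library-specific factor (largest relative deviation 7.15e-06). For the annotation, which was not given in the sources used here, symbol, chromosome and start of all 22287 genes match GENCODE M21. Strandedness is not given either, so reads of genes overlapping on opposite strands may not be separated; overlaps with listed neighbours covered at most 6.07% of a collagen gene's exons (Col9a3).

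Expected counts were rounded, filtered with filterByExpr (17305 genes left), scaled by TMM and tested with edgeR 4.0.16 (glmQLFit, glmQLFTest) in R 4.3.3. P-values were adjusted by Benjamini-Hochberg across the whole table, with a threshold of 0.05. CPM use TMM-scaled library sizes, the SE is derived from the F statistic, and n is 3 per group. Promoter windows come from RefSeq. Alternatives were RLE, upper-quartile and no scaling, TMM without collagen genes, no filter, a minimum of 1 CPM in 3 libraries, DESeq2 1.42.0, limma-voom and limma 3.58.1 on log2(signal + 1), an adjusted p under 0.1, leaving out each library, and a replicate block. In the block fit, only the replicate numbers found in both groups inform the group difference. Libraries of a group differed by more than counting noise (chi-square per degree of freedom 22.4 to 41.1), so none was a copy. The script was tested on simulated counts.

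Members, classes, and the lists of processing genes, receptors and cell type markers were chosen with earlier results of these data known, and no list test was made. Full values are given for called members, the 10 members with the smallest p, and the 3 members of each class with the highest share of counts. From the processing and receptor lists, called genes and up to 6 with the smallest p are named, and others serve as landmarks chosen after their values were seen. Summed marker levels not given above, in controls and then mutants, were 1459 to 1967 and 2160 to 2554 CPM for osteoblast, 4.52 to 19.6 and 4.07 to 9.50 for skeletal muscle, 455 to 495 and 480 to 518 for pericyte and smooth muscle, 23.4 to 29.2 and 29.5 to 34.0 for Schwann, 163 to 199 and 222 to 288 for macrophage, and 1421 to 1945 and 2364 to 5504 for erythroid genes. Of these lists edgeR called 1 macrophage and 1 pericyte and smooth muscle marker higher and none lower, beside 0.659% and 1.2% of all genes. DESeq2 called 2 osteoblast, 2 macrophage, 4 erythroid, 1 Schwann and 1 pericyte and smooth muscle marker higher. It called none of them lower, beside 2.15% and 2.97% of all genes higher and lower.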

Additional observations from a re-analysis of the deposited data

How the results depend on the processing

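The number of collagen genes called higher (1) became 3 with library totals alone, 6 with DESeq2, 2 at an adjusted p under 0.1 and 0 to 1 with a library left out. The number called lower (2) became 1 with library totals alone, 0 with limma on the normalized table and 0 to 2 with a library left out. Processing genes called higher (0) became 1 with library totals alone and 1 with DESeq2, and those called lower (0) became 3 with DESeq2. Library totals alone moved all genes by a median of 0.21, and with them the medians to 0.37 for all tested collagen genes, 0.54 for network, 0.23 for fibrillar, 0.19 for transmembrane, 0.27 for multiplexin, 0.03 for unclassified and 0.42 for beaded filament genes. The network median (0.34) was 0.20 without a filter, 0.20 by limma-voom and 0.13 on the normalized table, and the beaded filament median (0.23) was 0.37 without a filter, which admits Col6a6. With a library left out, the median over all tested collagen genes was 0.11 to 0.21, that of the transmembrane genes -0.15 to 0.06 and the log2 fold change of Arid1a -0.71 to -0.64. The difference in collagen share (0.953 points) was 0.0603 on TMM-scaled sizes, 0.264 without Amelx and Ambn and 1.04 without mitochondrial and globin genes, where alone the groups were apart. The protocol speaks of 3 pairs of samples without saying which libraries pair. Replicate numbers 3 and 5 occur in both groups. For each gene, log2(CPM + 1) was taken as the deviation from its group mean. Over the tested genes, correlations of these deviations between same-numbered control and mutant libraries were 0.267 and -0.144. Those of differently numbered libraries ran from -0.447 to 0.3, so these values cannot decide whether libraries were paired. With a replicate block, 1 collagen gene was called higher and 0 lower. The network median was then 0.22 and Arid1a stood at -0.70 (adjusted p = 0.0769 by edgeR). Replicate numbers found in 1 group alone add nothing to this fit's group difference, which rests on replicates 3 and 5. The cause of these changes was not tested beyond what each alternative alters. With 3 libraries per group, depth limits Col4a3 and Col6a6, which were too low to test, and groups of 3 were not screened for outlying libraries.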
